A study of Mus musculus with 49 samples.

Results

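Blood and lymphatic endothelium genes were followed through a serum-transferred arthritis time course in the mouse. The set held 10 genes, which are the lymphatic vessel genes Lyve1 and Flt4, the junction genes Cdh5 and Pecam1, the receptor genes Kdr, Flt1, Tie1, Tek and Eng, and Vwf, the gene of von Willebrand factor. Members were chosen by symbol, as the probe sets annotated to exactly 1 gene of the set, which gave 14 probe sets of the 10833 with 1 gene symbol and 10 genes of 8251. Where a gene had more than 1 probe set, the brightest on average over the 49 arrays stood for it.

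All 49 samples came from male B6 mice of 6 weeks, and no group carried a mutation in the labels. Whole ankle was taken on 6 days counted from the first injection of serum: day 0 with 4 arrays, day 1 with 2, day 3 with 3, day 7 with 4, and days 12 and 18 with 3 each. The labels of the fluid cells name it as K/BxN serum. K/BxN serum carries autoantibodies that cause joint inflammation in recipient mice. Cells of the synovial fluid had no day 0 and gave 3 arrays each on days 3, 12 and 18 and 4 on day 7, and leukocytes of peripheral blood gave 3 each on days 0, 1, 3, 7 and 12 and 2 on day 18. The labels describe the ankle RNA as extracted with SDS and urea and amplified in 2 rounds, while blood and fluid cells were lysed in Trizol, so tissue and preparation cannot be told apart. Of the fluid arrays 4 were set apart as of another preparation. These were replicate 1 of day 3, replicates 1 and 4 of day 7 and replicate 3 of day 18. The same holds for replicate 3 of day 3 in blood. Preparation therefore also varies within the fluid days and within blood. Only blood samples are called biological replicates, and elsewhere p-values measure the spread between samples, which may be technical.

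Endothelial cells line blood and lymphatic vessels. In blood vessels they are held together by VE-cadherin (Cdh5), kept alive and made to sprout by VEGF through Kdr, and quietened by angiopoietins through Tek. Lymphatic capillaries drain fluid and cells from inflamed joints, carry the hyaluronan receptor LYVE1 and respond to VEGF-C through Flt4. LYVE1 is also made by a subset of tissue resident macrophages and by the sinusoidal endothelium of the liver, Pecam1 by leukocytes and platelets, Eng and Flt1 by monocytes, and Vwf by megakaryocytes.

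Values are log2 intensities, and a probe set was taken as above background in a group when its mean exceeded 6.85, the 95th percentile of the 34 negative control probe sets. In ankle 7 of the 10 genes were above it on some day and 4 on every day (Eng, Vwf, Pecam1 and Flt1). Flt4, Tie1 and Tek never were, so for these 3 genes a difference that did not pass the test says little. Array medians lay between 58.6 and 64.1 in ankle on the linear intensity scale. Of the 19 ankle arrays, 4 were set apart as holding liver transcripts. Albumin (Alb) was at a log2 intensity of 8.95, 6.39, 8.41 and 10.65 on them, replicate 1 of days 0, 1, 7 and 12, against at most 5.19 on the other ankle arrays. On the day 1 array albumin was below the background limit, and that array was named by its day and replicate number, not by the limit. All ankle counts over the 10 genes and the lists at day 7 and over the late days were also made without these 4 arrays, and the text gives each count or call that this changed. Genes below background on one side of a comparison have only a bound on the size of their difference, given as at least so many fold, with the limit standing in for each dim array below it. Such a bound is taken from the group means and makes no allowance for the spread between arrays.

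Lyve1 fell in the arthritic ankle, and Cdh5 rose over days 7, 12 and 18 as a whole, while the other 8 genes did not pass the test on any day. At day 1 against day 0, 0 of 10 genes passed, beside 0% of all 8251 genes and 150 genes at an unadjusted p under 0.05. At day 3 again 0 of 10 passed, beside 0.23% of all genes and 711 at an unadjusted p under 0.05. At day 7, day 12 and day 18, 1 of 10 passed each time, and it was Lyve1, lower. The shares of all genes that passed were 6.73% at day 7, 3.24% at day 12 and 2.01% at day 18. For the mean of days 7, 12 and 18, 2 of 10 passed, Cdh5 higher and Lyve1 lower, beside 7.94% of all genes. The median difference of the 10 genes in that comparison was 0.09, and that of all genes was -0.01 (log2).

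**Figure D1:**
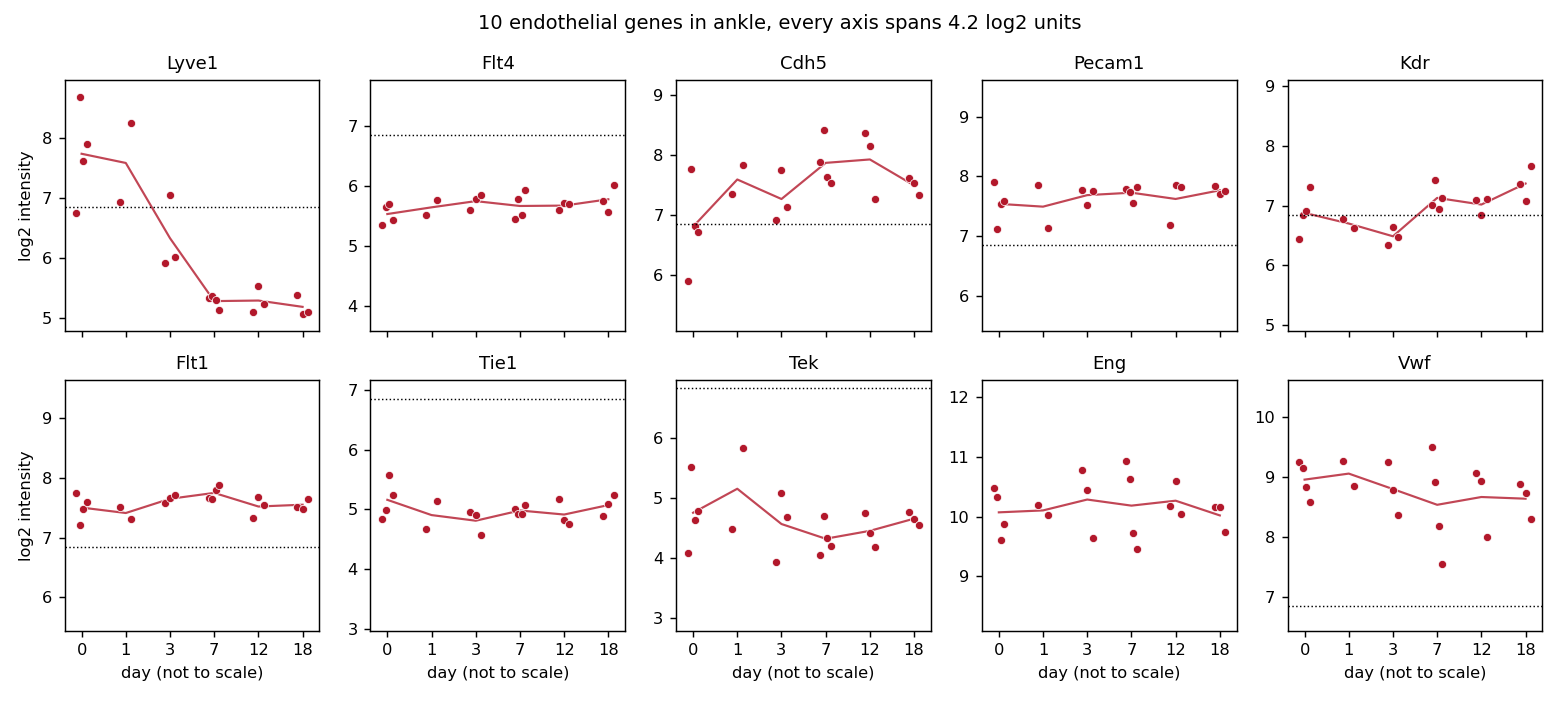
Log2 intensity of the 10 genes in each of the 19 ankle arrays (points) by day, with the day means joined by a line, and the 95th percentile of the negative controls dotted (6.85, outside the panel of Eng). Every axis spans the same number of log2 units: Lyve1 runs from 8.69 at day 0 to about 5 from day 7, and the others stay within a narrower band.

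Lyve1, the hyaluronan receptor of lymphatic capillaries, was at 6.74, 8.69, 7.62 and 7.91 at day 0 and at 6.92 and 8.25 at day 1. It was at 5.91, 7.05 and 6.02 at day 3 and at 5.32, 5.36, 5.29 and 5.12 at day 7. It was at 5.10, 5.53 and 5.22 at day 12 and at 5.38, 5.07 and 5.09 at day 18. All 10 arrays of days 7, 12 and 18 lay below all 4 arrays of day 0, as in 2.52% of all genes, and those of day 3 lay between, with 1 of the 3 inside the day 0 range. Arrays at day 0 were spread widely (7.74 ± 0.80, SD, n = 4), and those at day 7 closely (5.28 ± 0.10, SD, n = 4).

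The Lyve1 difference was -2.47 ± 0.34 at day 7 (log2 ± SE, adjusted p = 0.000172), -2.46 ± 0.36 at day 12 (adjusted p = 0.000702) and -2.56 ± 0.36 at day 18 (adjusted p = 0.000447). Over all 3 days it was -2.49 ± 0.28, with a 95% interval of -3.09 to -1.90 (adjusted p = 2.02e-05). Members were chosen with earlier results of these data known, so these p-values are not those of a gene picked without sight of the data. At day 3 the difference of -1.41 ± 0.36 did not pass (adjusted p = 0.131). It passed at day 3 without replicate 1 of day 0 (-1.74, adjusted p = 0.0247), and also without the 4 arrays that held liver transcripts (-1.74, adjusted p = 0.0121).

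The late Lyve1 values were below background on 10 of 10 arrays, where the size of a difference cannot be read, and 3 of the 4 day 0 arrays were above it. Set against the background limit in place of the measured late values, Lyve1 was at least 1.85-fold lower on days 7, 12 and 18 than at day 0. In bulk tissue fewer cells of a type and less RNA per cell cannot be told apart. Day 7 against day 3 gave -1.05 ± 0.36, which did not pass (adjusted p = 0.465). In that comparison 0 of 10 genes passed, beside 0.509% of all genes, and at day 18 against day 7 the count was 0 of 10 beside 0.0606%.

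**Figure D2:**
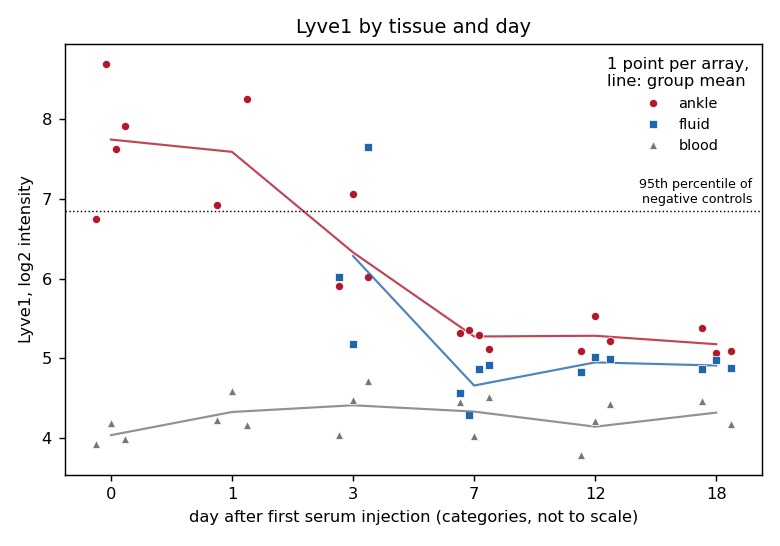
Log2 intensity of Lyve1 by day in ankle (circles), fluid cells (squares) and blood leukocytes (triangles), 1 point per array with lines through the group means and the 95th percentile of the negative controls dotted. Ankle arrays lie between 6.74 and 8.69 at day 0 and between 5.07 and 5.53 from day 7 to day 18, and blood arrays lie between 3.79 and 4.72 throughout.

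Markers of other sources of Lyve1 and of RNA length were set beside its course. Of the 10 measured tissue resident macrophage genes 2 were lower at day 7, Folr2 and Fcgrt. The summed linear intensity of that list was 1403 to 2065 at day 7 and 2041 to 2214 at day 0. Of the 6 liver sinusoid genes 2 were measured, Gpr182 and Dnase1l3, both below background in every ankle group. Their summed intensity was 114 to 128 at day 7 and 123 to 129 at day 0, and neither passed the test. Beta-actin controls, as a sign of RNA length, had a 3′ over 5′ log2 ratio of 3.34 to 3.83 at day 7 and 2.73 to 3.50 at day 0. With this ratio in the model the Lyve1 difference over days 7, 12 and 18 was -2.20 (adjusted p = 0.00227), and without the arrays holding liver transcripts it was -2.80 (adjusted p = 6.01e-06). The part of the macrophage list in the fall of Lyve1 was not tested.

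Flt4, the VEGF-C receptor of lymphatic endothelium, lay between 5.34 and 6.02 on all 19 ankle arrays, below background. Its difference over days 7, 12 and 18 was 0.17 ± 0.11 (log2 ± SE, 95% interval -0.06 to 0.41, adjusted p = 0.44), and the second Flt4 probe set gave -0.07 ± 0.12. At these levels a fall of Flt4 like that of Lyve1 could not have been seen.

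Other genes used to mark lymphatic vessels did not move together. Of 11 such genes 6 were measured, and over days 7, 12 and 18 against day 0 Gja1 and Pdpn were higher, Efnb2 was lower, and Prox1, Foxc2 and Reln did not pass. Gja1, a gap junction gene that many connective tissue cells express, rose by 1.47 ± 0.18 (adjusted p = 3.44e-05) and was above background on every day. Pdpn, which synovial fibroblasts express as well, differed by 0.70 ± 0.09 (adjusted p = 8.18e-05) at levels below background on every day. Efnb2, the ephrin of arteries and lymphatic valves, had a mean below background at day 7 (6.11) and above it at day 0 (7.16). Its difference over the 3 late days was -1.02 ± 0.21 (adjusted p = 0.0043), a fall of at least 1.24-fold, which did not pass with the beta-actin ratio in the model (-0.94, adjusted p = 0.0794). Prox1, the master regulator of lymphatic identity, had a mean of 4.30 at day 7 and 4.13 at day 0, both below background, and a difference of 0.18 ± 0.10 over the 3 days (adjusted p = 0.304). The median of the 6 genes was 0.10.

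Cdh5, the gene of VE-cadherin, was at 5.90, 7.78, 6.82 and 6.72 at day 0 and at 7.36 and 7.83 at day 1. It was at 6.91, 7.75 and 7.14 at day 3 and at 7.89, 8.43, 7.64 and 7.53 at day 7. It was at 8.36, 8.15 and 7.27 at day 12 and at 7.62, 7.53 and 7.33 at day 18. At day 0, 3 arrays lay below every array of days 7, 12 and 18, and replicate 2 lay inside their range. Those 3 arrays were also below background, while all 10 late arrays were above it.

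Over days 7, 12 and 18 Cdh5 rose by 0.96 ± 0.27 (log2 ± SE, 95% interval 0.39 to 1.53, adjusted p = 0.0357). As the day 0 mean of 6.80 was not above background, the bound on the rise of the means is at least 1.61-fold. It makes no allowance for spread, and the low end of the 95% interval, 0.39, lies below its log2 value of 0.68. Single days did not pass, with 1.07 ± 0.32 at day 7 (adjusted p = 0.057), 1.12 ± 0.35 at day 12 (adjusted p = 0.0942) and 0.69 ± 0.35 at day 18 (adjusted p = 0.473). The rise did not pass without the 4 arrays holding liver transcripts (0.59, adjusted p = 0.194) or with the beta-actin ratio in the model (1.13, adjusted p = 0.109). It did not pass in 8 of 19 fits that left out 1 array. These were replicates 1, 3 and 4 of day 0, replicate 2 of day 7, replicates 1 and 2 of day 12, and replicates 1 and 2 of day 18, and the differences in all 19 ran from 0.66 to 1.28. The lowest of them came without replicate 1 of day 0, the array with the lowest Cdh5.

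Pecam1, an adhesion molecule at endothelial junctions, was above background on every ankle array, at 7.56 to 7.82 at day 7 and 7.12 to 7.91 at day 0. Its difference over days 7, 12 and 18 was 0.17 ± 0.16 (adjusted p = 0.653). The 95% interval of -0.16 to 0.49 leaves no room for a change of the size seen in Lyve1 in the bulk ankle signal. Pecam1 was also above background in blood (group means 7.17 to 7.41) and fluid cells (7.12 to 7.27). The part of endothelium in its ankle signal was not tested.

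Kdr, the main VEGF receptor of blood endothelium, lay close to the background limit. It was at 6.44, 6.85, 6.91 and 7.32 at day 0 and at 6.79 and 6.62 at day 1. It was at 6.35, 6.64 and 6.48 at day 3 and at 7.01, 7.43, 6.95 and 7.13 at day 7. It was at 7.1, 6.84 and 7.12 at day 12 and at 7.36, 7.09 and 7.67 at day 18. Day 3 held the lowest mean (6.49) and day 18 the highest (7.37). All arrays of day 7 were above all arrays of day 3, as in 3.03% of all genes. The difference of 0.64 ± 0.19 between them did not pass (adjusted p = 0.25), nor did 0.29 ± 0.15 over days 7, 12 and 18 against day 0 (adjusted p = 0.274).

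Flt1, the other VEGF receptor of blood vessels, was at 7.65 to 7.87 at day 7 and 7.21 to 7.74 at day 0, with a difference of 0.10 ± 0.11 over the 3 late days (95% interval -0.12 to 0.33, adjusted p = 0.688). Its second probe set gave -0.15 ± 0.16 at levels below background. Tie1 and Tek, the receptors of the angiopoietin system, differed by -0.17 ± 0.13 (adjusted p = 0.551) and -0.28 ± 0.25 (adjusted p = 0.635), both below background throughout. The second Tie1 probe set gave 0.016 ± 0.335. It lay at 4.96 to 7.365 on ankle arrays, with every day mean below background. In blood it lay at 2.61 to 3.11 and in fluid cells at 2.78 to 3.70. Eng, a co-receptor for TGF-beta family ligands, was at 9.45 to 10.93 at day 7 and 9.61 to 10.48 at day 0. Its difference of 0.09 ± 0.26 had a 95% interval of -0.46 to 0.63 (adjusted p = 0.915).

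Vwf, which endothelial cells store and release to bind platelets, was at 9.51, 8.91, 8.18 and 7.55 at day 7 and 9.25, 9.15, 8.84 and 8.59 at day 0. Arrays of day 7 reached above and below the day 0 range. The difference over days 7, 12 and 18 was -0.34 ± 0.29 (95% interval -0.95 to 0.26, adjusted p = 0.591), and the second Vwf probe set gave 0.16 ± 0.13 below background.

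**Figure D3:**
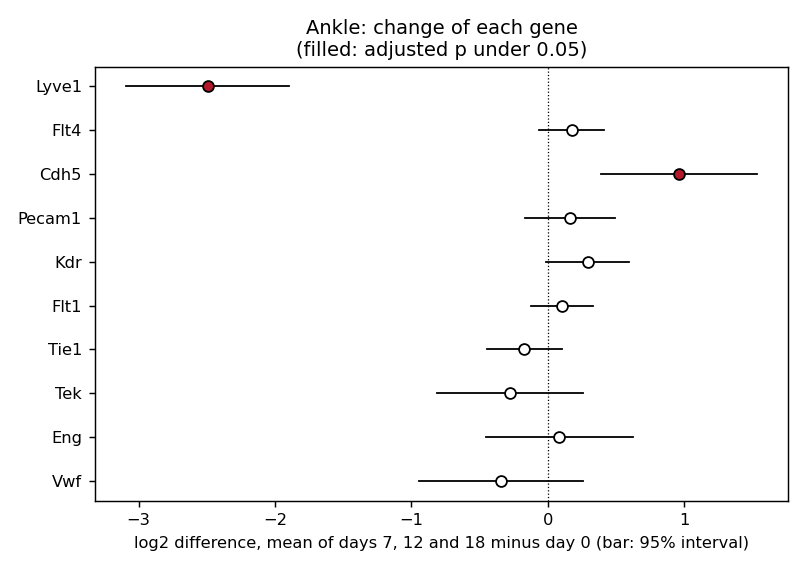
Log2 difference of each gene in ankle, mean of days 7, 12 and 18 minus day 0, with its 95% interval, and filled points for an adjusted p under 0.05. The Lyve1 interval of -3.09 to -1.90 stands clear of all others, and the Cdh5 interval of 0.39 to 1.53 is the only other one that leaves out 0.

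The within-array difference of Lyve1 and each other gene was tested as well. It holds the fall of Lyve1 itself, late Lyve1 values were below background, and of the 9 other members Flt4, Tie1 and Tek never rose above it, so its sizes are not to be read as fold changes. Over days 7, 12 and 18 against day 0, Lyve1 fell relative to 9 of 9 members, by 2.15 ± 0.46 relative to Vwf up to 3.46 ± 0.21 relative to Cdh5 (log2 ± SE, ordinary least squares). The adjusted p-values lay between 1.42e-07 and 0.000497. Lyve1 fell relative to 99.7% of all 8250 other genes in the same test, so the members stood apart from Lyve1 no more often than other genes did. In an exact permutation test (two-sided, 10 arrays against 4) the difference in means had p = 0.002 against 8 of the 9 genes, the smallest that the 1001 splits can give, and p = 0.004 against Vwf. The arrays did not overlap for those 8, and for Vwf the highest late difference (-2.42) was above the lowest at day 0 (-2.51). The permutation was run for the members only, so no share of all genes stands beside it. Since every late Lyve1 array lay below every one of day 0, its outcome carries the Lyve1 fall and shows nothing particular to the members. At day 3 Lyve1 fell relative to 8 of 9 members, beside 91.4% of all genes, and the difference from Vwf did not pass (-1.25 ± 0.60, adjusted p = 0.0605). With limma's moderated spread 9 of 9 passed at day 3, but 1 of 9 with the beta-actin ratio in the model and 4 to 9 in fits that left out 1 array. The moderated p-values are too small, because every value in that fit holds Lyve1.

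The growth factors that act on these receptors did not pass in ankle. Of 7 measured VEGF and angiopoietin ligands 0 passed at day 7 and 0 over the 3 late days, with a median difference of 0.03 at day 7 and 0.02 over the 3 days. Vegfb was above background on every day and differed by -0.27 ± 0.14 at day 7 (adjusted p = 0.332). Vegfa, Vegfc, Vegfd, Angpt1 and Angpt2 were below background in every ankle group, so their differences are not informative. Pgf, the placental growth factor, was above background at day 0 only (6.91) and differed by -0.21 ± 0.12 at day 7 (adjusted p = 0.36).

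Other pan-endothelial genes moved in both directions. Of 28 listed, 19 were measured, and at day 7 1 was higher and 2 were lower. Ramp2, which pairs with the adrenomedullin receptor of vessels, fell by 1.00 ± 0.23 (adjusted p = 0.0105), with means of 7.93 at day 7 and 8.93 at day 0. Cldn5, the tight junction claudin of endothelium, fell by 1.52 ± 0.41 (adjusted p = 0.0282), with means of 7.23 at day 7 and 8.75 at day 0. S1pr1, the sphingosine 1-phosphate receptor, was higher by 0.44 ± 0.13 (adjusted p = 0.0435), below background on every day. The mean of its probe sets gave 0.285, which did not pass (adjusted p = 0.111). With the beta-actin ratio in the model 0 of the 19 passed at day 7 or over the late days, with Ramp2 at -0.98 (adjusted p = 0.0723) and Cldn5 at -1.61 (adjusted p = 0.101) at day 7. Without the 4 arrays holding liver transcripts 3 were lower at day 7 (Cd34, Cldn5 and Ramp2) and 0 higher, with S1pr1 at 0.41 (adjusted p = 0.129).

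Over days 7, 12 and 18, 2 of the 19 were higher and 1 was lower. Emcn, the endomucin of capillaries and veins, rose by 0.64 ± 0.19 (adjusted p = 0.0461), S1pr1 was higher by 0.42 ± 0.11 (adjusted p = 0.0203), and Ramp2 fell by 0.85 ± 0.19 (adjusted p = 0.0088). The Emcn and S1pr1 differences did not pass without the 4 arrays holding liver transcripts, where Emcn gave 0.58 (adjusted p = 0.0949) and S1pr1 0.40 (adjusted p = 0.0644), and 2 were lower there, Ramp2 (-0.89, adjusted p = 0.00956) and Cldn5. With the beta-actin ratio in the model Ramp2 gave -0.83 (adjusted p = 0.0975). With the mean of each gene's probe sets Emcn gave 0.13 (adjusted p = 0.464) and S1pr1 0.26 (adjusted p = 0.0757), which did not pass. Ramp2 passed there (-0.85, adjusted p = 0.00855). At days 12 and 18 alone 0 of the 19 passed. The median of the list was 0.03 over the 3 days, against -0.01 for all genes.

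Adhesion genes of activated endothelium gave 2 of 6 higher at day 7, Vcam1 and Selp. Vcam1, which binds leukocyte integrins and is also made by synovial fibroblasts, had a mean of 7.80 at day 7 and 5.99, below background, at day 0. Its difference was 1.81 ± 0.30 (adjusted p = 0.00114), a rise of at least 1.91-fold, and the mean of its probe sets gave 0.75, which did not pass (adjusted p = 0.0563). Selp, the P-selectin of venules and platelets, had a mean of 7.64 at day 7 and 6.81, just below background, at day 0, and rose by at least 1.68-fold (0.82 ± 0.15, adjusted p = 0.00209). Ackr1, the chemokine binding receptor of venules, was above background throughout and differed by -0.39 ± 0.14 (adjusted p = 0.119). Sele and Icam1 were below background on every day.

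The cells around vessels were read from 9 measured pericyte and smooth muscle genes, of which 2 were lower at day 7. Myh11, the smooth muscle myosin heavy chain, had a mean of 5.61 at day 7, below background, and 7.05 at day 0. Its difference of -1.44 ± 0.25 (adjusted p = 0.00161) is a fall of at least 1.15-fold. Tagln, the smooth muscle gene of transgelin, had a mean of 7.4 at day 7 and 8.24 at day 0 and fell by 0.84 ± 0.16 (adjusted p = 0.00349). The other 7, with Pdgfrb and Rgs5 of pericytes among them, did not pass.

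Of the 10 measured tissue resident macrophage genes Folr2 and Fcgrt were lower at day 7. Folr2, a folate receptor of resident macrophages, had a mean of 7.53 at day 7 and 8.42 at day 0 and fell by 0.89 ± 0.14 (adjusted p = 0.000983), and it also passed at day 12 (-0.99, adjusted p = 0.00118) and day 18 (-0.82, adjusted p = 0.00787). Fcgrt, the neonatal Fc receptor, which endothelium expresses too, was below background throughout and differed by -0.66 ± 0.16 (adjusted p = 0.0173), which did not pass with the beta-actin ratio in the model (-0.62, adjusted p = 0.117). Stab1, a scavenger receptor shared by such macrophages and lymphatic endothelium, was above background throughout and differed by -0.22 ± 0.26 (adjusted p = 0.755).

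**Figure D4:**
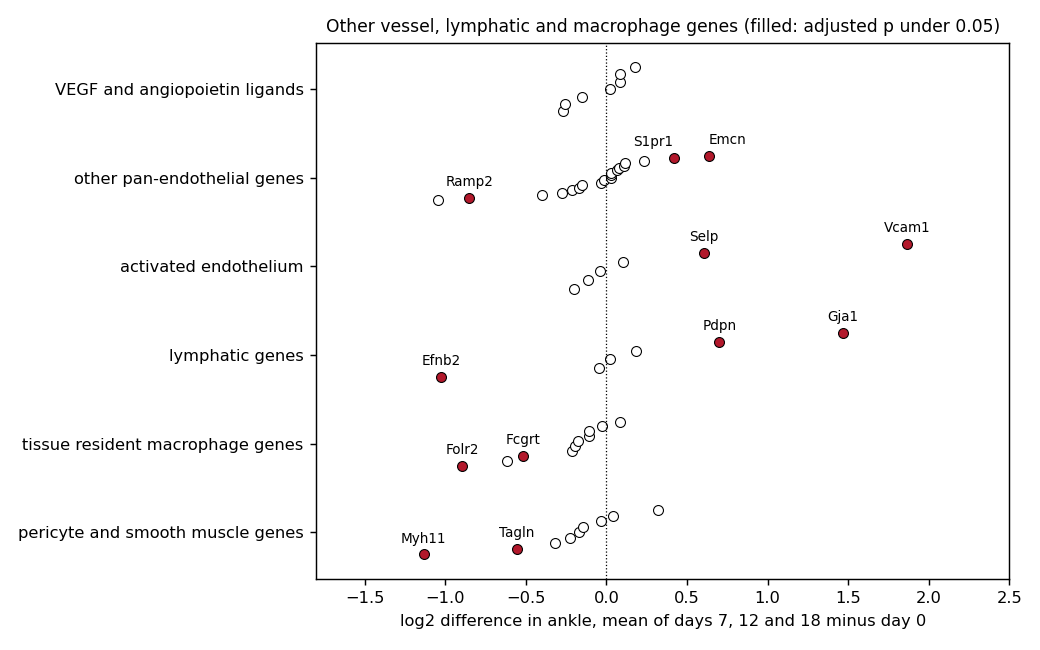
Log2 difference in ankle, mean of days 7, 12 and 18 minus day 0, of the measured genes of 6 lists, 1 point per gene, filled and named where the adjusted p was under 0.05. Vcam1 (1.86) and Gja1 (1.47) are farthest to the right, and Myh11 (-1.13) and Efnb2 (-1.02) are the filled points farthest to the left.

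Markers of other cell types moved in the ankle over the same days. Of 8 pan-leukocyte genes 3 were higher at day 7, and of 8 measured neutrophil genes 4. The summed intensity of the neutrophil list was 2624 to 4939 at day 7 and 550 to 837 at day 0. Adipocyte genes gave 2 lower of 6 measured at day 7 (Lep and Retn) and 4 lower over the 3 late days. Without the 4 arrays holding liver transcripts they gave 2 (Pparg and Retn) and 3, with Lep not passing at day 7 (-0.44, adjusted p = 0.212) or over the late days (-0.51, adjusted p = 0.0647). With the beta-actin ratio in the model 2 were lower over the late days. Skeletal muscle genes, with 0 of 10 passing, had a summed intensity of 3745 to 17307 at day 7 and 9329 to 21274 at day 0. Over the late days without the arrays holding liver transcripts 1 muscle gene (Myh1) and 1 hepatocyte gene (Cyp2e1) passed, both lower, against 0 of each with all arrays. The part of these shifts in any endothelial value was not tested.

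The genes most like Lyve1 over the 19 ankle arrays, among 3639 genes above background on some ankle day, were Cyp1b1 (r = 0.954), Klf5 (0.935), Lmo2 (0.932), Efnb2 (0.928), Atp2a3 (0.915), S100a6 (0.913), Limch1 (0.9) and Ltbp4 (0.894). Their differences at day 7 against day 0 ran from -0.89 for S100a6 to -1.41 for Ltbp4 (log2). Those most like Cdh5 were Mapre1 (0.892), Mob1a (0.883), Itgb1 (0.876), Capza1 (0.868) and Pdk3 (0.862). These correlations describe arrays that share the day of sampling and the RNA preparation, and were not tested.

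Within days, after the day means were taken out, Lyve1 varied together with Tek (r = 0.86, 0.782 without 2 arrays) and with Cdh5 (r = 0.776, 0.55 without 2 arrays), and Tek with Cdh5 (r = 0.83). Lyve1 and Pecam1 varied in opposite directions (r = -0.671, -0.46 without 2 arrays). Replicate 2 of day 0 and replicate 2 of day 1 showed both patterns: Lyve1 was at 8.69 and 8.25, the highest values of its whole course, and Pecam1 at 7.12 and 7.13, the lowest of its course. Vwf varied with Eng (r = 0.878). The 2 arrays left out were those whose Lyve1 deviations lay farthest from their median. Tek was below background on every ankle array and Lyve1 on all 10 of the late days, so their correlations rest partly on dim signal. All are descriptions over 19 arrays, with no correlations over other genes beside them.

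Ankle against blood leukocytes checked the set against its label. Over the 6 matched days 9 of the 10 genes were higher in ankle, all but Flt1, beside 29.8% of all genes higher and 65.8% different in either direction. Flt4, Tie1 and Tek are in that count although below background in both tissues, and 5 members were called when the 33.3% of genes with the lowest signal were left out. The share of all genes was not taken for that last fit. In blood Eng, Pecam1, Flt1 and Vwf were above background, and the sizes of the other differences cannot be read beyond a bound. Cdh5 had a difference of 3.14 ± 0.13 (log2 ± SE, adjusted p = 1.71e-19), at 5.90 to 8.43 in ankle and 4.01 to 4.61 in blood, which is at least 1.56-fold. Eng, measured above background in both, was higher by 2.38 ± 0.12 (adjusted p = 4.44e-17), at 9.45 to 10.93 in ankle and 7.46 to 8.11 in blood. Lyve1 differed by 1.97 ± 0.14 (adjusted p = 1.36e-13), at 5.07 to 8.69 in ankle and 3.79 to 4.72 in blood, with its mean over the ankle days not above background either.

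Cdh5, Eng, Lyve1, Kdr and Tek had every ankle array above every blood array, as had 8.52% of all genes. Pecam1 and Flt4 differed less, by 0.34 ± 0.08 (adjusted p = 0.000589) and 0.25 ± 0.06 (adjusted p = 0.000849), and their arrays overlapped. Flt1 was at 7.21 to 7.87 in ankle and 7.43 to 7.78 in blood, a difference of -0.04 ± 0.05 with a 95% interval of -0.14 to 0.07 (adjusted p = 0.58). Vwf was 0.77 ± 0.19 higher in ankle (adjusted p = 0.000634), but blood leukocytes were also above background, at 7.15 to 9.07. Of the platelet genes 5 of 5 measured were lower in ankle, beside 36% of all genes, but no more than 1 of the 5 was above background in any group, with a summed intensity of 350 to 471 in ankle and 526 to 978 in blood, and their part in Vwf was not tested.

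Fluid cells gave a like picture over the 4 matched days, with 9 of the 10 genes higher in ankle, all but Lyve1, beside 19.4% of all genes higher and 38.1% different in either direction. Cdh5 differed by 3.03 ± 0.16 (adjusted p = 7.12e-15), which is at least 1.73-fold, as fluid cells were below background. Vwf differed by 2.68 ± 0.18 (adjusted p = 8.73e-13), at least 3.51-fold, and Eng, above background in both, was 1.57 ± 0.16 higher (adjusted p = 3.97e-09). Vwf in fluid cells lay at 5.33 to 6.82, below background on every array, unlike in blood. Lyve1 differed by 0.32 ± 0.21 (adjusted p = 0.248), and both tissues were below background from day 7 on.

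**Figure D5:**
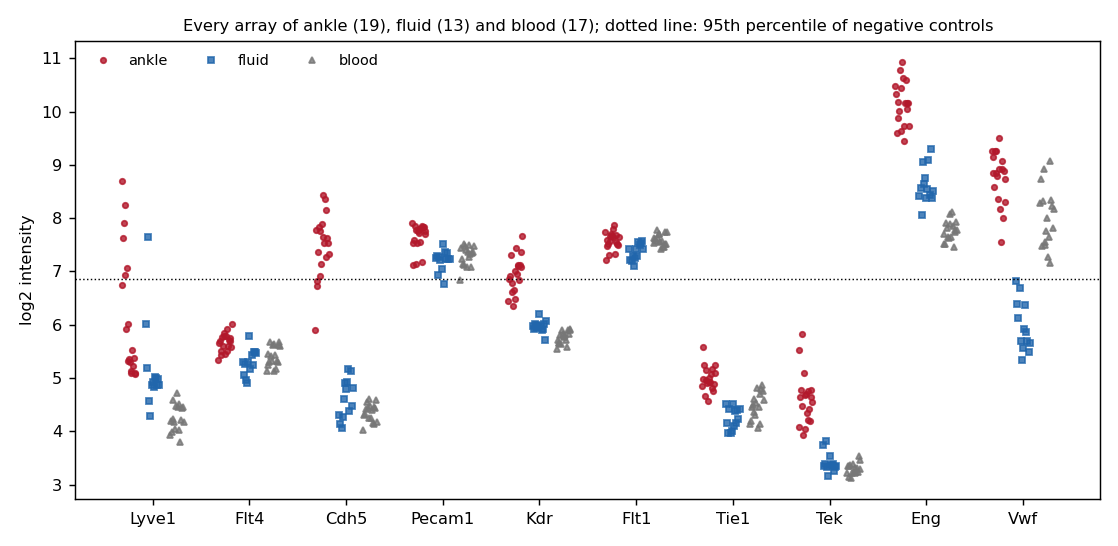
Log2 intensity of each gene on every array of ankle (19), fluid cells (13) and blood leukocytes (17), with the 95th percentile of the negative controls dotted. Cdh5, Kdr, Tek and Eng separate ankle from both other tissues, Vwf separates ankle from fluid but overlaps with blood, and Flt1 and Pecam1 overlap in all 3. Each gene is shown by its brightest probe set. The second Flt1 probe set, not shown, lay higher in ankle at group means below background. Tek is below background in all 3 tissues. Over the matched days every ankle array lay above every fluid array in 2.64% of all genes, and above every blood array in 8.52%.

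In blood leukocytes no member passed the test on any day. At days 1, 3, 7, 12 and 18 against day 0, 0 of the 10 genes passed, beside 0% of all genes on each day, with 168 to 1702 genes at an unadjusted p under 0.05. The ankle response to serum was set against the blood response in an interaction test. Lyve1 alone of the 10 passed, with -2.76 ± 0.44 at day 7 (adjusted p = 0.000238), -2.56 at day 12 (adjusted p = 0.00128) and -2.84 at day 18 (adjusted p = 0.00103), beside 2.28%, 1.91% and 1.35% of all genes on these days. At day 3, 0 of 10 passed, beside 0.133%, and Lyve1 gave -1.79 (adjusted p = 0.134). Blood Lyve1 was below background throughout, so no fall of its own could have been seen there, and these values carry the ankle fall without showing that blood responded differently.

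In fluid cells Lyve1 was at 6.02, 5.18 and 7.64 at day 3 and at 4.57, 4.29, 4.87 and 4.92 at day 7. It was at 4.84, 5.02 and 4.99 at day 12 and at 4.87, 4.98 and 4.88 at day 18. The 3 arrays of day 3 lay above all later ones but were far apart, and replicate 3 alone was above background. Taken day by day, every array lay below every array of day 3 in 3.03% of all genes at day 7, 10.7% at day 12 and 13.1% at day 18. At day 7 against day 3 Lyve1 fell by 1.62 ± 0.38 (adjusted p = 0.0289), the single one of 10 genes that passed, beside 2.56% of all genes. It did not pass at day 12 (-1.33 ± 0.40, adjusted p = 0.121) or day 18 (-1.37 ± 0.40, adjusted p = 0.0866), where 0 of 10 passed, beside 2.7% and 3.19%. The day 7 result did not pass in 5 of 13 fits that left out 1 array (replicate 1 of day 3 and replicates 1, 2, 3 and 4 of day 7), with differences of -2.17 to -0.94 over the 13, and 0 of 10 genes passed without the 4 fluid arrays of another preparation.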

How the data were processed

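The authors deposited linear intensities of Affymetrix MG-U74Av2 arrays, 12488 probe sets on 49 arrays, which they obtained by RMA (background correction, quantile normalization and probe set summary), per the submitters' processing notes, with no version given in the sources used here. Intensity values were put on the log2 scale here. Of the probe sets 10833 had 1 symbol, 396 several, and 1259 none or were controls. Each of 8251 genes was fitted through its brightest probe set with limma 3.58.1 in R 4.3.3 (lmFit, eBayes with trend), 1 mean per tissue and day. P-values are two-sided and Benjamini-Hochberg adjusted over all genes, threshold 0.05. Ankle, fluid and blood were fitted separately, and comparisons of tissues over matched days with both. Intervals are 95%. Python 3.11.15 and scipy 1.17.1 gave the exact permutation tests.

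Members and gene lists were chosen with earlier results of these data known. Named are all members, up to 4 genes per list with the smallest p at day 7 and those that passed over the late days, and the genes most like Lyve1 (8) and Cdh5 (5).

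On simulated data with 200 changed genes among 8251, the ankle fit over days 7, 12 and 18 recovered 97% of log2 changes of 2 and 95% of those of 1, with 6.3% false calls. Changes of 1 were recovered less often elsewhere, with 74% in ankle at day 3 and 74% in fluid at day 7. In the ankle minus blood response at day 7 it was 55%. The simulated noise was independent between arrays and had no background floor, so real recovery may differ. The number of arrays limits the precision. Same-numbered ankle samples had a mean correlation of deviations of 0.26 and a lowest of -0.18, against a mean of -0.10 for other numbers. They were thus more alike on average, but the main fits did not take replicate numbers as pairs. With the replicate number as a block 11.1% of all genes passed at day 7 against day 0 in ankle, beside 6.73% in the main fit.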

Additional observations from a re-analysis of the deposited data

Results flagged for a closer look

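The ankle change of Lyve1 minus its blood change passed the test of the interaction at day 7 (-2.76), day 12 (-2.56) and day 18 (-2.84, log2). Blood Lyve1 was below background on all days, where no fall could be seen, so these values carry the ankle fall and do not show that the response in blood differed. Single arrays far from the rest were looked for with Dixon's test at the 95% level, which flags about 5% of cases by chance, in each of the 10 genes in the 3 groups with 4 arrays (ankle at days 0 and 7, fluid at day 7), and 0 of 30 stood out.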

How the results depend on the processing

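Of 3286 recomputed values for 102 results, 3186 were rated the same, and 0 reversed. For a gene this means the same direction and side of the threshold. A count of members was also rated the same when it differed only slightly. Most of these values came from fits that left out 1 array. The fall of Lyve1 at days 7, 12 and 18 passed in every alternative, with differences of -2.83 to -2.18 over the 3 days without 1 array. Elsewhere calls changed as follows, and the cause was not tested unless given. Renewed quantile normalization gave 2 members at day 7, with Cdh5 at 1.15. Leaving out the 33.3% of genes with the lowest signal gave 2 at day 7 (Cdh5 1.07), 5 in ankle against blood, and 0 in the ankle minus blood response at days 7, 12 and 18, since Lyve1 itself was left out there. Array weights gave 2 members at day 3 (Lyve1 -1.05), 2 at day 7 (Cdh5 1.24), 3 at day 12, 2 at day 18 and 1 at day 7 against day 3 (Lyve1 -1.40). For the ankle minus blood response they gave 3, 2, 3 and 2 at days 3, 7, 12 and 18. A fit of all 49 arrays gave 1 at day 3 (Lyve1 -1.41), 2 at each of days 7 (Cdh5 1.07), 12 and 18, and 1 at day 7 against day 3. With the replicate block 2 passed at day 7 (Cdh5 1.07, adjusted p = 0.0136) and 2 at day 12, and Lyve1 over days 7, 12 and 18 was -2.49. Without the arrays with liver transcripts 1 passed at day 3 (Lyve1 -1.74), 1 in the response at day 3, and over the late days Lyve1 alone, as Cdh5 (0.59) no longer did. The beta-actin covariate left Lyve1 alone over the late days, as Cdh5 (1.13) no longer passed, and 1 of the 9 falls of Lyve1 relative to members at day 3. Without fluid arrays of another preparation 0 passed at day 7 against day 3. Shares of all genes were taken in ankle for the replicate block, the fit without the liver arrays and the covariate only. Over the late days these were 13%, 9.87% and 3.11%, beside 7.94% in the main fit. At day 12 with the block it was 6.06%, and at day 3 without the liver arrays 0.582%. The other counts of members in this paragraph have no such share beside them, so a change in them is not a result about the members.

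In fits without 1 array, Cdh5 ran from 0.77 to 1.39 at day 7 and from 0.66 to 1.28 over the late days, and Lyve1 from -1.78 to -1.10 at day 3. Members that passed numbered 0 to 1 at day 3, 1 to 2 at day 7, at day 12 and over the late days, 0 to 1 in the response at day 3, 1 to 2 at days 7 and 12, 0 to 1 in fluid on each day, and 4 to 9 for Lyve1 relative to members at day 3. With limma's moderated spread 9 of 9 of those differences passed at day 3. Signal over background limits all values of Flt4, Tie1 and Tek, and of Lyve1 from day 7 on.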
